A study of Mus musculus with 2 samples.

Results

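The genes of gluconeogenesis and hepatic glucose output were followed in the liver transcriptomes of a normal and a diabetic mouse group. They were a list of 10 genes taken by symbol, and 9 of them (Pck1, Fbp1, G6pc, Pcx, Slc37a4, Slc2a2, Mdh1, Gpd1 and Gpd2) were among the 8551 genes listed in the expression table, while Pck2, the mitochondrial form of phosphoenolpyruvate carboxykinase, was not listed and has no level here. The measurements were digital gene expression tags, short sequences next to a DpnII restriction site in the messenger RNA that are sequenced and counted for each gene. The normal library came from wild type mice and the diabetic library from db/db mice, in which the receptor for leptin is defective and obesity and high blood glucose develop. Both groups were labelled as male, of C57BL/6 background, 9 weeks old and fed chow freely, and whole livers were taken about 3 h into the light cycle. The mice were bought from more than one supplier, and the sources used here do not say which group came from which, so supplier and genotype cannot be told apart. Whether a library held the RNA of 1 mouse or a pool of mice is not given in the sources used here.

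Each group had 1 library, so no difference below has a replicate check and no p-value is given for the conditions. Values are tags per 1000000 clean tags (TPM), and intervals cover the counting error of the reads alone. PCR copies were not separated from original molecules. The normal library held 10278531 clean tags and the diabetic library 13508232, of which 37.1% and 44.4% fell on listed genes, and the median listed gene had 71 and 111 reads. The median log2 ratio of diabetic over normal across all listed genes was 0.25, so more genes were higher than lower on this scale, and the ratio of each gene is also given relative to that median.

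In the fasted state the liver makes glucose from lactate, alanine and glycerol. Pyruvate is carboxylated to oxaloacetate in mitochondria by pyruvate carboxylase (Pcx), carried out as malate, oxidised back by cytosolic malate dehydrogenase (Mdh1) and turned into phosphoenolpyruvate by phosphoenolpyruvate carboxykinase (Pck1). Fructose bisphosphatase (Fbp1) returns the pathway to hexose monophosphates, Slc37a4 carries glucose 6-phosphate into the endoplasmic reticulum, the catalytic subunit of glucose 6-phosphatase (G6pc) releases free glucose there, and the transporter GLUT2 (Slc2a2) moves glucose across the hepatocyte membrane. Glycerol enters through the cytosolic and mitochondrial glycerol 3-phosphate dehydrogenases (Gpd1 and Gpd2). Insulin is known to lower, and glucagon and glucocorticoids to raise, transcription of Pck1 and G6pc.

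A gene is read in this assay through few positions, so the predicted tag of each is given to show what a count stands for. The sequences below, read from GENCODE M21 transcripts of the GRCm38 build, start at the DpnII site nearest the 3′ end, with the site in capitals. The tag length used by the study is not given in the sources used here, and 21 bases were taken.
Pcx: GATCttactccagcctggcag
Pck1: GATCagaaaagcaccttttaa
Mdh1: GATCccattacttaagtcctt
Fbp1: GATCtacaggaagcacaaagc
G6pc: GATCttgggcaaaatggcaag
Slc37a4: GATCaataaagctagatttga
Slc2a2: GATCactctgctggagttttt
Gpd1: GATCccgactgggctggaacc
Gpd2: GATCaagataacggtggcttg
Each of these tags matched transcripts of 1 gene in the annotation, so no paralog shared them. The site lay within the coding sequence in Fbp1 and Pcx, and downstream of it in the other 7. Its distance from the transcript end ran from 30 bases in Slc37a4 to 1254 bases in Gpd2. The table gives a sum for each gene and no tags, so which tags were counted is not known, and levels are compared between the libraries and not between genes.

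Pck1, Fbp1 and Slc2a2 were 3.07-fold to 3.11-fold higher in the diabetic library, or 2.48-fold to 2.61-fold under 4 other scalings of the libraries, Gpd1 was higher by less, and the other 5 listed genes had ratios within 1.5-fold. By a threshold of 1.5-fold on the deposited values, 4 of the 9 genes were higher and 0 were lower in the diabetic library, against 34.4% of all listed genes higher and 15.3% lower. The median log2 ratio of the 9 genes was 0.46, beside 0.25 for all listed genes. The share of the genes that were higher, 4 of 9, was thus near the background share at this threshold. When the libraries were rescaled to a common composition by a trimmed mean (TMM), 3 of the 9 genes (Pck1, Fbp1 and Slc2a2) were at least 1.5-fold higher and 0 lower, against 24.0% of all listed genes higher and 23.6% lower.

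**Figure D1:**
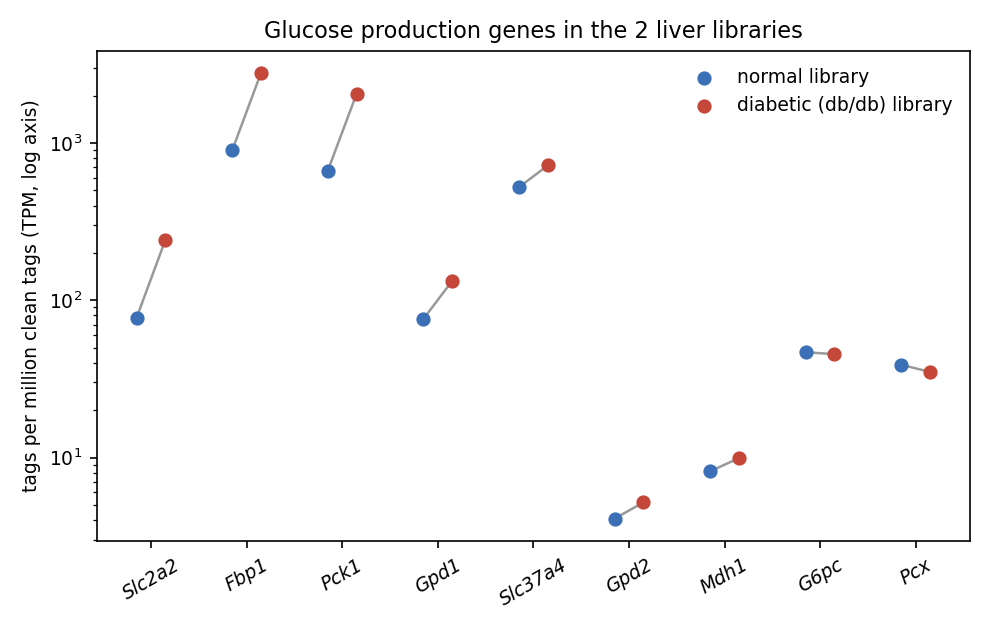
Tags per 1000000 clean tags (TPM, log axis) of the 9 listed glucose production genes in the normal library (blue) and the diabetic library (red), with 1 library per group and a line joining the values of a gene. Slc2a2, Fbp1 and Pck1 show the steepest lines, while G6pc and Pcx lie slightly lower in the diabetic library.

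At the entry of the pathway, the carboxylase and the carboxykinase differed from each other. Pcx had 38.8 TPM in the normal library (399 reads) and 35.0 TPM in the diabetic library (473 reads). Its ratio was 0.902-fold with a counting interval of 0.788 to 1.03, which includes no change on the deposited scale. Under 4 other scalings the Pcx ratio was lower, 0.730-fold to 0.757-fold. Among all listed genes, 68.9% had a ratio at least as high as that of Pcx. Pck1, the step at which oxaloacetate is committed to glucose, had 668 TPM (6864 reads) in the normal and 2047 TPM (27654 reads) in the diabetic library. The Pck1 ratio was 3.07-fold (2.99 to 3.15), a log2 ratio of 1.62, or 1.36 relative to the median gene, and 6.72% of listed genes had a ratio at least as high. Within each library, tags of Pck1 per tag of Pcx went from 17.2 to 58.5, a 3.40-fold change (2.96 to 3.90) that no scaling between the libraries can alter. Mdh1 was a low count gene with 8.17 TPM (84 reads) in the normal and 9.92 TPM (134 reads) in the diabetic library. Its interval, 0.917-fold to 1.61-fold, spans both no change and the threshold, so a difference was not detectable at this depth, and its log2 ratio of 0.28 turned to -0.03 under median-ratio scaling.

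Fbp1 had the highest tag count of the 9 genes in both libraries. It measured 899.8 TPM (9249 reads) in the normal and 2782 TPM (37576 reads) in the diabetic library. The ratio was 3.09-fold (3.02 to 3.16), a log2 ratio of 1.63, and its interval overlapped that of Pck1. Together, Fbp1 and Pck1 took 66.9% of the tags of the 9 genes in the normal library (Wilson interval 66.3 to 67.5) and 80.3% in the diabetic library (80.0 to 80.5). The summed level of the 9 genes was 2343 TPM in the normal and 6017 TPM in the diabetic library, 2.57-fold higher (2.53 to 2.61). Without Fbp1 and Pck1 the sum of the other 7 genes was 1.53-fold higher (1.49 to 1.58), so these 2 genes set most of the difference in the sum.

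The 3 genes that handle glucose 6-phosphate and glucose release did not share 1 ratio. G6pc had 46.7 TPM (480 reads) in the normal library and 45.4 TPM (613 reads) in the diabetic library, a ratio of 0.972-fold (0.861 to 1.10). This was a log2 ratio of -0.04, or -0.29 relative to the median gene. On the deposited scale the interval includes no change and excludes the 1.5-fold threshold in either direction. Under 4 other scalings the G6pc ratio was lower, 0.786-fold to 0.816-fold. Slc37a4 had 523 TPM (5380 reads) and 719 TPM (9708 reads), a ratio of 1.37-fold (1.33 to 1.42), under the threshold but with an interval that excludes no change on the deposited scale. Slc2a2 had 77.6 TPM (798 reads) and 242 TPM (3263 reads), a ratio of 3.11-fold (2.88 to 3.37), which was the highest of the 9 genes, with an interval overlapping those of Fbp1 and Pck1. G6pc thus differed from the other genes of its system when counted within a library. Tags of Slc2a2 per tag of G6pc went from 1.66 to 5.32, a 3.20-fold change (2.77 to 3.70). Tags of Slc37a4 per tag of G6pc went from 11.2 to 15.8, a 1.41-fold change (1.25 to 1.60). Against the upstream enzymes, Fbp1 per G6pc changed 3.18-fold (2.81 to 3.60) and Pck1 per G6pc changed 3.15-fold (2.79 to 3.57). The share of G6pc in the tags of the 9 genes was 1.99% (1.82 to 2.18) in the normal and 0.754% (0.697 to 0.816) in the diabetic library.

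For glycerol, the cytosolic and the mitochondrial dehydrogenase were both read, with very unequal precision. Gpd1 had 76.1 TPM (782 reads) in the normal and 133 TPM (1791 reads) in the diabetic library, a ratio of 1.74-fold (1.60 to 1.90). Its call depended on the scaling, with ratios of 1.41-fold to 1.46-fold under 4 other scalings. Gpd2 had 4.09 TPM (42 reads) and 5.18 TPM (70 reads), a ratio of 1.27-fold with a wide interval of 0.853 to 1.91. The change of Gpd1 per Gpd2, 1.37-fold, had an interval of 0.905 to 2.06 and was not distinguishable from no change.

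In the order of the ratios, Slc2a2, Fbp1 and Pck1 came first and their intervals overlapped. Gpd1 lay apart from Pck1 above it and from Slc37a4 below it. From Slc37a4 down through Gpd2, Mdh1, G6pc and Pcx, each gene's interval overlapped that of the next. Each of the 4 genes called higher also passed the threshold combined with a false discovery rate under 0.001 in an exact binomial test of the reads, which compares these libraries and not the conditions. By that rule 22.9% of all listed genes were higher and 8.19% lower.

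**Figure D2:**
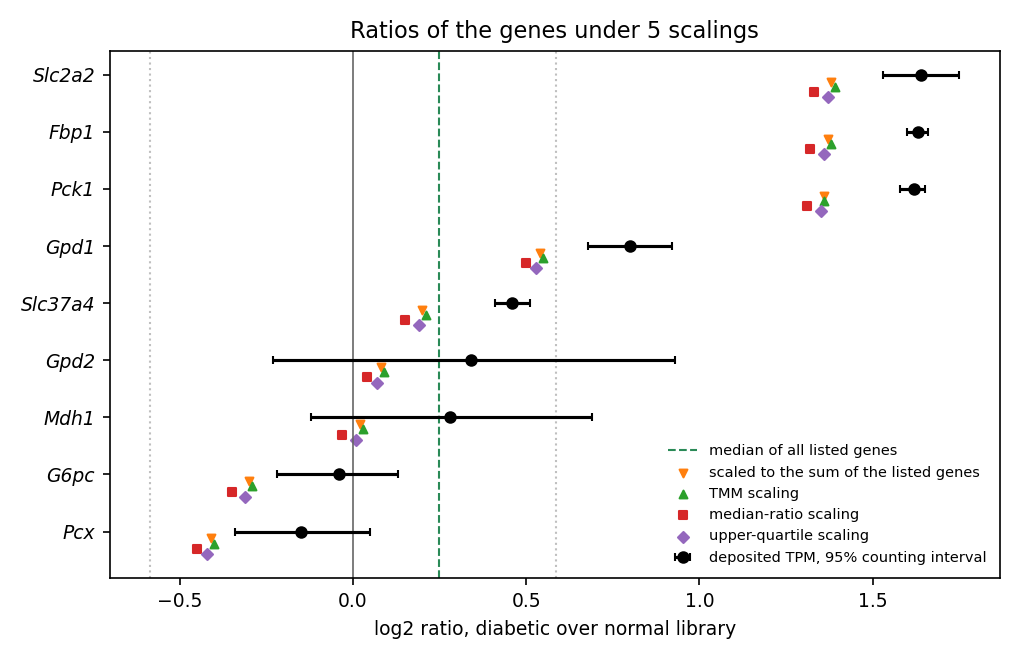
Log2 ratio of diabetic over normal for each listed gene on the deposited TPM (black, with 95% counting intervals) and under 4 other scalings of the libraries (coloured markers), with the median of all listed genes as a dashed line and 1.5-fold in each direction as dotted lines. The 3 genes at the top stay beyond the threshold under all 5 scalings, Gpd1 falls inside it under the 4 others, and Mdh1 changes sign under median-ratio scaling (-0.03).

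The promoters of 4 of these genes are shown because 3 of them, Pck1, Fbp1 and Slc2a2, had nearly the same ratio while that of G6pc differed. Each runs from 250 bases before to 50 bases after the transcription start in RefSeq on GRCm38.p6, 5′ to 3′ on the strand of the gene, with matches to the searched motifs in capitals. They lie at chr2:173152823-173153122 (Pck1, plus strand), chr13:62888233-62888532 (Fbp1, minus strand), chr3:28697653-28697952 (Slc2a2, plus strand) and chr11:101367466-101367765 (G6pc, plus strand).
Pck1: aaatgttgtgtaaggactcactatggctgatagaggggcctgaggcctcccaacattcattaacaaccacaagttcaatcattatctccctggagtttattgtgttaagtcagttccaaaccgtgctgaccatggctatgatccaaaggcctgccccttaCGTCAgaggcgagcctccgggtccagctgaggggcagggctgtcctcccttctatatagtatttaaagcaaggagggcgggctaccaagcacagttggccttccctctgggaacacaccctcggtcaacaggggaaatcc
Fbp1: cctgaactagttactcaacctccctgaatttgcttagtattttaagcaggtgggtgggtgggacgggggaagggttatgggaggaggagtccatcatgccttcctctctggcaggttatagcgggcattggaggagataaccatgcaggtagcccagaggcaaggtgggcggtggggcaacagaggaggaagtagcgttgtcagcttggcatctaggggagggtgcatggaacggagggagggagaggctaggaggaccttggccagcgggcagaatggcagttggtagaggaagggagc
Slc2a2: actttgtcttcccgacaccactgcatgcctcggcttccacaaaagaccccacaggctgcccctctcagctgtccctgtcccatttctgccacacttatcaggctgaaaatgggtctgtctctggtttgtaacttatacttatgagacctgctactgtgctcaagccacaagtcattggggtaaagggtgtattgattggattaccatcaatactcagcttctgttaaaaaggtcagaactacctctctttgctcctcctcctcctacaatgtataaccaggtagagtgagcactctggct
G6pc: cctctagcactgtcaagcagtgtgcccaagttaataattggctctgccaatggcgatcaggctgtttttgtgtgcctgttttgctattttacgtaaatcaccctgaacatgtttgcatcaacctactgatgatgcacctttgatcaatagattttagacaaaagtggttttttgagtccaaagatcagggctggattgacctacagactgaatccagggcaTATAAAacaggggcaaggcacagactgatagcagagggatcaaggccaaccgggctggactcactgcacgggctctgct
The searched letters, on both strands, were the cAMP response element core TGACG and its full form TGACGTCA, the FOXO core GTAAACA, the HNF4-type site CAAAGTCCA, the glucocorticoid receptor motif AGAACA, the E box CACGTG and the TATA box TATAAA, of which the cAMP core is contained in its full form. Pck1 held TGACG on the other strand, with its first base at -90 from the start. G6pc held TATAAA at -29, and Fbp1 and Slc2a2 held none of these letters in the window. Of all 32851 promoters, 20.8% held TGACG and 13.6% held TATAAA. RefSeq held 13 promoters for 9 of the 10 genes, all but Gpd1 and with Pck2 included, and among these TGACG was found in 3, TATAAA in 2 and CACGTG, held by 7.15% of all promoters, in 1. Those with TGACG were the Pck1 promoter and overlapping windows of Slc37a4 that share a match, so a site is counted more than once. The full cAMP form, the FOXO core, the HNF4-type site and the glucocorticoid receptor motif were in 0 of the 13, beside 1.79%, 3.65%, 0.475% and 19.0% of all promoters. A match of letters is a description of the window and shows no binding.

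The neighbouring steps of glucose metabolism were read through lists of genes chosen by function, whose counts stand against 34.4% of all listed genes higher and 15.3% lower on the deposited values, and 24.0% higher and 23.6% lower under TMM scaling. Among the enzymes shared by glycolysis and gluconeogenesis, 6 of 12 were listed, of which 2 were at least 1.5-fold higher and 0 lower, with a median log2 ratio of 0.38, a split near those shares, and under TMM scaling 1 was higher and 2 lower. Pgam1, phosphoglycerate mutase, had 465 TPM in the normal and 794 TPM in the diabetic library (log2 ratio 0.77). Aldoa, the muscle-type aldolase, had 57.5 and 44.2 TPM (log2 ratio -0.38) and Aldoc, the brain-type aldolase, had 8.85 and 6.96 TPM (-0.35). Gapdh was not listed.

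Next came the genes that feed carbon into the pathway. Of 23 genes of lactate, pyruvate, amino acid and glycerol entry, 16 were listed, 9 were at least 1.5-fold higher and 0 lower (34.4% and 15.3% of all listed genes), with a median log2 ratio of 0.70 (7 higher and 0 lower under TMM scaling). The highest ratio was that of Sds, serine dehydratase, which makes pyruvate from serine, with 81.0 TPM in the normal and 451 TPM in the diabetic library, 5.58-fold (5.19 to 6.00). Both alanine aminotransferases were higher, Gpt2 from 57.8 to 268 TPM (4.63-fold, 4.25 to 5.06) and Gpt from 81.7 to 238 TPM (2.91-fold, 2.70 to 3.15). Ldhd, the D-lactate dehydrogenase, went from 41.1 to 111 TPM (2.70-fold, 2.42 to 3.02). Among the 7 genes not listed were the lactate dehydrogenases Ldha and Ldhb, Slc16a1, Mpc1 and the glycerol kinase gene Gk. They have no level here and are not analysed.

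Of 7 genes for mitochondrial malate dehydrogenase and the carriers of malate, aspartate, citrate and phosphate, 6 were listed, 3 were higher and 1 lower, as under TMM scaling. The dicarboxylate carrier Slc25a10, which exchanges malate for phosphate, had 163 TPM in the normal and 579 TPM in the diabetic library, 3.55-fold (3.36 to 3.74). The aspartate and glutamate carrier Slc25a13 had 36.9 and 88.2 TPM, 2.39-fold (2.13 to 2.69). The citrate carrier Slc25a1 had 172 and 96.2 TPM, 0.560-fold (0.521 to 0.602). Mitochondrial malate dehydrogenase, Mdh2, had 74.7 TPM (768 reads) and 195 TPM (2639 reads), 2.62-fold (2.41 to 2.84), unlike its cytosolic counterpart. Tags of Mdh1 per tag of Mdh2 went from 0.109 to 0.0508, a change of 0.464-fold (0.347 to 0.625).

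**Figure D3:**
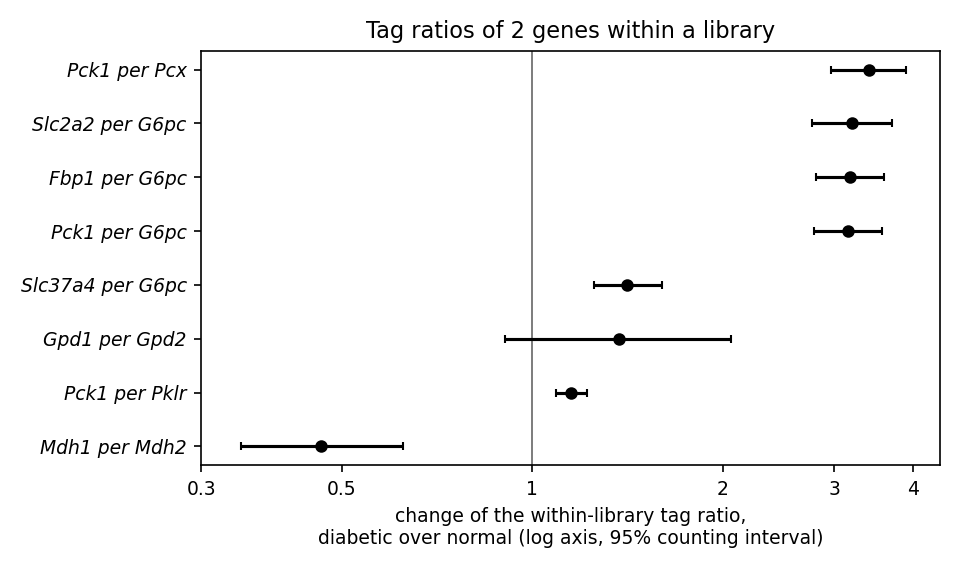
Change of the tag ratio of gene pairs within a library, diabetic over normal (log axis), with 95% counting intervals. Pck1, Fbp1 and Slc2a2 per G6pc all lie between 3.15 and 3.20, Gpd1 per Gpd2 overlaps no change, and Mdh1 per Mdh2 is lowest at 0.464.

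The irreversible steps of glycolysis, their regulators, and pyruvate dehydrogenase with its kinases formed another list, which holds both enzymes of glucose breakdown and inhibitors of them. Of these 23 genes, 14 were listed, 10 were at least 1.5-fold higher and 0 lower (34.4% and 15.3% of all listed genes), with a median log2 ratio of 0.86 (8 higher and 1 lower under TMM scaling). Pklr, the liver pyruvate kinase that works against Pck1 by using phosphoenolpyruvate, had 197 TPM in the normal and 526 TPM in the diabetic library, 2.67-fold (2.54 to 2.80). Tags of Pck1 per tag of Pklr went from 3.39 to 3.89, a change of 1.15-fold (1.09 to 1.22). Pfkfb1, which makes and removes the regulator fructose 2,6-bisphosphate, had 28.4 and 61.1 TPM, 2.15-fold (1.88 to 2.47). The pyruvate dehydrogenase kinases, which inhibit that enzyme, were among the genes counted as higher, and Pdk1 (8.95 and 21.3 TPM) and Pdk4 (2.53 and 5.11 TPM, 26 and 69 reads) had log2 ratios of 1.25 and 1.01.

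Of 14 paralogs of the glucose production genes 5 were listed, 2 of them at least 1.5-fold higher and 0 lower, against 34.4% and 15.3% of all listed genes, and 0 of the 5 passed with a false discovery rate under 0.001. G6pc3, the widely expressed glucose 6-phosphatase, had 19 reads in the normal and 34 in the diabetic library, and its interval of 0.755-fold to 2.53-fold includes no change. The glucose transporter Slc2a1 had 30 and 77 reads (1.95-fold, 1.27 to 3.09), Slc2a9, which also carries urate, had 13 and 43 reads (2.52-fold, 1.33 to 5.10), and Slc2a8 had 178 and 264 reads (1.13-fold, 0.930 to 1.37).

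Regulators were counted in the same way. Of 42 transcription regulators of these genes, 28 were listed, 7 were at least 1.5-fold higher and 5 lower, with a median log2 ratio of 0.19, beside 34.4% and 15.3% of all listed genes and their median of 0.25. The nuclear receptor Hnf4a had 96.8 TPM in the normal and 46.2 TPM in the diabetic library, 0.477-fold (0.431 to 0.528). The fatty acid receptor Ppara had 36.6 and 82.1 TPM (2.24-fold, 2.00 to 2.53), Klf15, a factor of amino acid catabolism, had 38.8 and 79.1 TPM (2.04-fold, 1.82 to 2.29), and Cebpb had 119.7 and 188 TPM (1.57-fold, 1.47 to 1.68). The hepatocyte factor Cebpa had 218 and 255 TPM (1.17-fold, 1.11 to 1.24). The insulin-inhibited factor Foxo1 had 5.93 and 6.88 TPM, and its interval of 0.831-fold to 1.63-fold includes no change. The CREB coactivator Crtc2 had 11.1 and 8.74 TPM (0.604-fold to 1.03-fold) and the glucocorticoid receptor Nr3c1 35.0 and 41.4 TPM (1.18-fold, 1.03 to 1.35). Ppargc1a and Creb1 were not listed. TMM scaling turned the split of this list from 7 higher and 5 lower into 4 higher and 10 lower.

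Of 32 genes of insulin and glucagon signalling, 28 were listed, 7 were higher and 6 lower, with a median log2 ratio of 0.11, and under TMM scaling 4 were higher and 9 lower, beside all-gene shares of 34.4% and 15.3%, and of 24.0% and 23.6% under TMM. Some of these calls rested on few reads and had intervals that include no change. They were Pdpk1 (called higher, 18 and 41 reads, 0.974-fold to 3.205-fold) and Prkaa1 (called lower, 15 and 10 reads, 0.204-fold to 1.21-fold). Igfbp1, whose transcription insulin is known to lower, had 127 TPM in the normal and 45.8 TPM in the diabetic library, 0.360-fold (0.327 to 0.397). Prkacb, a catalytic subunit of protein kinase A, had 8.27 and 22.4 TPM, 2.71-fold (2.13 to 3.49). The adenylyl cyclase Adcy6 had 7.78 and 15.6 TPM, 2.01-fold (1.55 to 2.63), and the cAMP phosphodiesterase Pde4b had 19 and 64 reads, 2.56-fold (1.52 to 4.53). The glucagon receptor Gcgr had 183 and 244 TPM, 1.34-fold (1.26 to 1.42), and the insulin receptor Insr had 36.6 and 36.7 TPM, 1.00-fold (0.876 to 1.15).

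**Figure D4:**
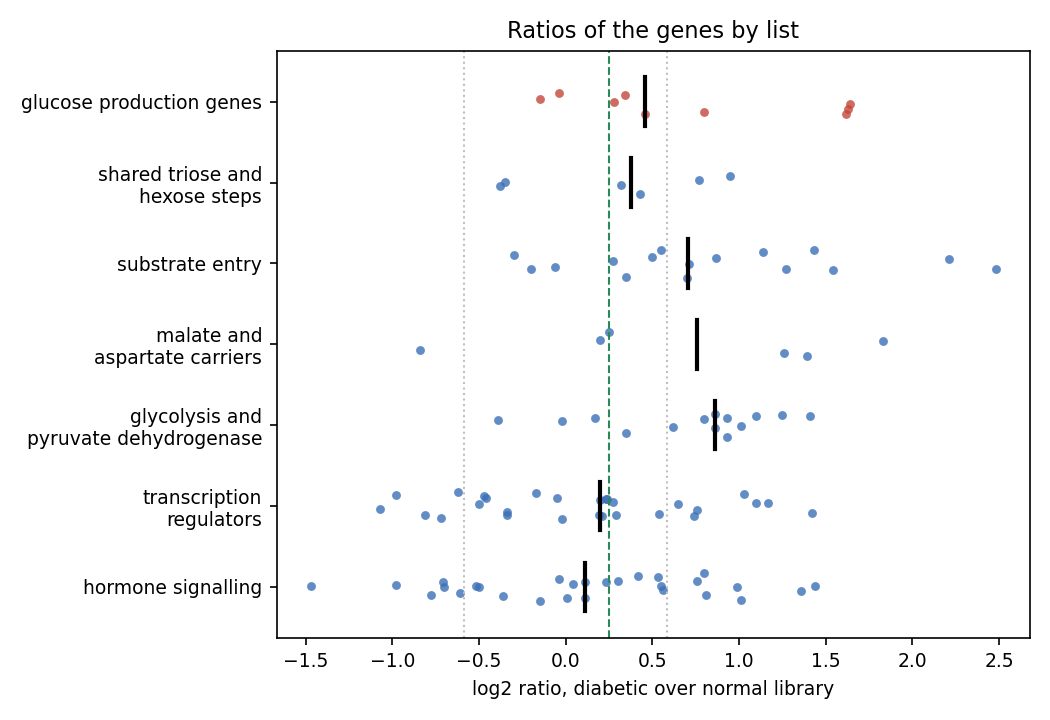
Log2 ratio of diabetic over normal for every listed gene of the glucose production list (red) and of 6 related lists (blue), with the median of each list as a black bar, the median of all listed genes as a dashed line and 1.5-fold in each direction as dotted lines. The list of glycolysis and pyruvate dehydrogenase has the highest median, 0.86, and the regulator lists have medians of 0.19 and 0.11.

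The tissue was checked with cell type markers, since fewer cells of a type and less RNA per cell cannot be told apart in whole liver. Of 12 hepatocyte markers 8 were listed, and their sum was 20330 TPM in the normal and 20940 TPM in the diabetic library. Single hepatocyte markers lay in both directions, with Apob at 0.183-fold, Hnf4a at 0.477-fold and Cps1 at 2.43-fold. Of 10 kidney markers 0 were listed, but 4 of the 12 hepatocyte markers, among them Apoa2 and Fabp1, were not listed either. The kidney also makes glucose, and a part of kidney tissue in the values of Pck1, Fbp1 and G6pc was not tested. Of 12 adipocyte markers 7 were listed, with sums of 29.0 and 121.5 TPM, 5 higher and 1 lower, and the defining markers Adipoq, Lep, Plin1 and Retn were not listed. Of 12 macrophage markers 9 were listed, with sums of 331 and 196 TPM, 1 higher and 5 lower, and most of the difference in the sum was that of C1qa (176 and 50.7 TPM). The adipocyte and macrophage counts stand beside 34.4% of all listed genes higher and 15.3% lower. The part of these cell types in the ratios above was not tested.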

How the data were processed

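Liver RNA was read as DpnII tags in 2 libraries, 1 per group. The deposited TPM values are tags per 1000000 clean tags (rpm), made by the authors by counting tags that matched single genes. The mm9 build is named in the submitters' processing notes, and the tag mapping software is not given in the sources used here. A value of 0.01 stood for no tag, and the smallest gene mean was 1.005 TPM. Of the deposited values above 0.01, 8513 of 8513 (normal) and 8536 of 8537 (diabetic) were within 0.1 read of whole multiples of 1 read (0.0973 and 0.0740 TPM), from which reads and Clopper-Pearson 95% intervals of ratios were computed. Genes at least 1.5-fold apart were counted. Alternatives were 4 scalings, 1 or 0.1 TPM added, minimum means, 2-fold and an exact binomial test with Benjamini-Hochberg adjustment. Within-library ratios were computed for 10 of 12 chosen pairs. The members and lists were chosen with earlier results of these data known. The text names all listed members, the 4 genes of each list furthest from no change with at least 50 reads, and preset key genes, apart from a few genes, pairs and a motif that are not reported here. Code was tested on simulated data and used Python 3.11.15, numpy 2.4.6, scipy 1.17.1 and pandas 2.3.3.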

Additional observations from a re-analysis of the deposited data

How the results depend on the processing

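The median log2 ratio of the 9 genes, 0.46 on the deposited values, was 0.20 after scaling to the summed tags of the genes in the table, 0.21 with TMM, 0.15 with median-ratio and 0.19 with upper-quartile scaling, each of which moved every ratio down by the same amount, between 0.25 and 0.31 on the log2 scale. It was 0.63 for the 8 genes averaging 5 TPM or more and 0.80 for the 7 averaging 10 TPM or more, the latter setting chosen after seeing the data, because the genes left out had low ratios. The count of genes at least 1.5-fold higher was 3 or 4 and the count lower 0 under every alternative run. No paired analysis was possible because each group had 1 library, and for the same reason no library could be left out. At 42 to 134 reads, Gpd2 and Mdh1 were the genes that depth limited most.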

Other observations

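Gluconeogenesis is known to be strongest in hepatocytes around the portal vein, so markers of liver zones were also counted. Of 16 periportal markers 12 were listed, 7 were at least 1.5-fold higher and 1 lower in the diabetic library, with a median log2 ratio of 0.96. Across all listed genes 34.4% were higher and 15.3% lower, with a median of 0.25. The periportal amino acid enzymes Gls2, liver glutaminase, and Cps1, the first enzyme of the urea cycle, had 299 and 656 TPM (2.20-fold) and 130 and 317 TPM (2.43-fold). The exception was Cdh1, the epithelial cadherin, with 24.1 TPM (248 reads) in the normal and 0.96 TPM (13 reads) in the diabetic library. Of 16 pericentral markers 15 were listed, 6 were higher and 2 lower, a split near the all-gene shares, with a median of 0.32. Among these, Oat, ornithine aminotransferase, had 338 and 1785 TPM (5.29-fold), and Cyp2e1 had 6581 and 7817 TPM (1.19-fold). The 2 lower pericentral genes were Cyp27a1, with 239 and 121 TPM (0.507-fold), and Gulo, with 138 and 73.4 TPM (0.531-fold). Under TMM scaling the periportal list had 6 higher and 1 lower and the pericentral list 4 higher and 4 lower. The all-gene shares under that scaling were 24.0% higher and 23.6% lower. These genes were chosen for mention after their values were seen, the difference between the lists was not tested, and Sds, Gls2 and Hal belong to both the periportal and the substrate entry lists.

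Other markers gave sums of 176.5 and 147.0 TPM for 12 of 12 endothelial genes (2 at least 1.5-fold higher, 4 lower), 145.2 and 195.3 TPM for 10 of 12 stellate genes (2 higher, 2 lower) and 61.5 and 107.3 TPM for 3 of 8 cholangiocyte genes in the normal and diabetic library, of which Spp1 made up 57.2 and 103 TPM while Krt7 and Epcam had ratios of 1.10 and 0.947, and 1 of 7 erythroid genes was listed (51.9 and 44.2 TPM). The endothelial and stellate counts stand beside 34.4% of all listed genes higher and 15.3% lower. In the adipocyte list, Pparg had 7.59 and 51.8 TPM and Fabp4 8.56 and 26.6 TPM. Lipe had 8.76 and 9.77 TPM and Adrb3 3.41 and 1.55 TPM. Cidea had 0 reads in the normal and 95 reads in the diabetic library, Cidec had 2 and 176 reads, and Cfd had 5 and 160 reads. In the macrophage list, C1qb had 38.1 and 57.8 TPM and Cd5l 64.7 and 62.9 TPM.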
